A study of Arabidopsis thaliana with 20 samples.

Results

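The genes described here are the 41 loci of 3 families that respond to auxin early in Arabidopsis thaliana: 29 Aux/IAA genes, 6 GH3 genes (GH3.1, GH3.2, GH3.3, GH3.5, GH3.6 and GH3.17) and the 6 neighbouring genes SAUR19 to SAUR24. They were chosen by locus identifier from the 34262 genes in the count files. No cut on their values was used, but earlier results of these data were known. For tests, a gene had to average over 0.5 CPM (gene counts scaled to the size of the library) across the 20 samples, which kept 35 of the 41 and 19196 genes in all. The 6 that fell short were IAA15, IAA20, IAA31, IAA33, IAA34 and GH3.1.

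RNA was sequenced from aboveground tissue of bolting plants in the Col-0 background, 20 samples in 6 groups, all grown on soil in a chamber set at 22 and 20 °C with 12 h of light. Gen2 dwarf (n = 5) and Gen2 large (n = 3) are second-generation plants labelled null for the transgene, and they descend from Gen1. Gen1 dwarf (n = 3) is the first null generation and comes from siblings of the T+ plants. T+ dwarf (n = 3) and T+ normal (n = 3) carry the PPD3-OX construct, which overexpresses PPD3, a plastid protein with a PsbP domain. WT (n = 3) is the wild type, and WT 3 carries Col-1 as its ecotype label although its source is named Col-0. The labels call the samples biological replicates, but neither the promoter of the construct, nor the number of independent lines, nor any pooling of plants is stated in the labels. The question the design puts to these genes is whether they differ between plants with the construct, their descendants without it and WT, and between dwarf and non-dwarf plants of the same genotype.

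Auxin acts by removing repressors. It holds an Aux/IAA protein against an F-box receptor of the TIR1/AFB family, the Aux/IAA protein is degraded, and the auxin response factors (ARFs) it had blocked switch on their targets. Aux/IAA, GH3 and SAUR genes are the classic targets: Aux/IAA proteins close a negative feedback loop, GH3 enzymes join auxin to amino acids and so take it out of use, and SAUR19 to SAUR24 proteins inhibit PP2C.D phosphatases, which leaves plasma membrane proton pumps active and cells expanding. In shoots these genes are studied for their part in elongation, and gain-of-function alleles of GH3.2, GH3.5 and GH3.6 give dwarf plants.

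The receptor reads a short stretch of the Aux/IAA protein, the degron, whose core is Gly-Trp-Pro-Pro. This core was found in 23 of the 29 Aux/IAA proteins (79.3%) and was absent from IAA20 and from IAA30 to IAA34. Across the genome, 34 of 27444 coding genes (0.124%) encode it. The repression motif Leu-x-Leu-x-Leu lies within the first 80 residues of 27 of the 29, all but IAA2 and IAA33 in the protein model used. Below are 30 bases of coding sequence around the core from the 7 Aux/IAA genes that edgeR called in any test and from IAA9, the most abundant, read 5′ to 3′ from RefSeq's TAIR10.1 assembly. Capitals mark the 12 bases that encode the core.
IAA2 (chr3:8181387-8181416, minus strand): caaatcgttGGTTGGCCACCAgtgagatct
IAA4 (chr5:17550740-17550769, plus strand): cagattgttGGATGGCCACCAgttagatct
IAA8 (chr2:9637725-9637754, plus strand): caggttgttGGTTGGCCTCCAatcagatca
IAA9 (chr5:26255104-26255133, plus strand): caaattgtcGGTTGGCCTCCAgtgagatcc
IAA16 (chr3:1289730-1289759, minus strand): caagttgtgGGATGGCCACCGgtacgatct
IAA18 (chr1:19306231-19306260, plus strand): ccagtggtgGGATGGCCTCCGgttcgatcc
IAA26 (chr3:5613662-5613691, minus strand): ccagtggtgGGTTGGCCTCCGgttcgttcg
IAA29 (chr4:15583942-15583971, plus strand): gaagttgttGGATGGCCACCAgtaaaaaca
The 8 stretches encode the same 4 residues. The cores of IAA4 and IAA29 are alike letter for letter, as are those of IAA8 and IAA9, and the other cores differ from these and from each other in the codons used.

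ARFs bind DNA at auxin response elements, here searched as TGTCTC and TGTCGG on both strands, from 250 bases before the annotated gene start to 50 after it. Either motif was present in 22 of the 41 genes (53.7%), against 5123 of 27443 coding genes (18.7%). TGTCTC alone was in 18 of the 41 (43.9%), against 14.2% of all coding genes. By family, 16 of 29 Aux/IAA, 4 of 6 GH3 and 2 of 6 SAUR windows had a match. Of the 11 genes that edgeR called in any test, GH3.2, GH3.3 and IAA8 had TGTCTC and IAA16 had TGTCGG, while IAA2, IAA4, IAA18, IAA26, IAA29, SAUR21 and SAUR24 had neither in this window. The 250 bases before the start are given for the first 3 of these, 5′ to 3′ on the gene's strand in TAIR10.1, with the match in capitals (GAGACA is TGTCTC on the other strand). The match begins 144 bases before the start of GH3.2, 116 before that of GH3.3 and 176 before that of IAA8.
GH3.2 (chr4:17579368-17579617, plus strand): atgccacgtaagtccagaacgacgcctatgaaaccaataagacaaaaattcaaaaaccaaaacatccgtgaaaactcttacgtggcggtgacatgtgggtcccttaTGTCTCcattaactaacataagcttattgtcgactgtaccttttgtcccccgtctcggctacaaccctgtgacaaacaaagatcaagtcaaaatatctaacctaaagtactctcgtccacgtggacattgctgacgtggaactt
GH3.3 (chr2:9866563-9866812, minus strand): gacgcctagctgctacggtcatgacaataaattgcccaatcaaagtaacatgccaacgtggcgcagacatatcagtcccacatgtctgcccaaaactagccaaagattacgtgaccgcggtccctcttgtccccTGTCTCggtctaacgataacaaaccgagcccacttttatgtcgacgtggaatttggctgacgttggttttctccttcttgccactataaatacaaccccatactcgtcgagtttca
IAA8 (chr2:9636096-9636345, plus strand): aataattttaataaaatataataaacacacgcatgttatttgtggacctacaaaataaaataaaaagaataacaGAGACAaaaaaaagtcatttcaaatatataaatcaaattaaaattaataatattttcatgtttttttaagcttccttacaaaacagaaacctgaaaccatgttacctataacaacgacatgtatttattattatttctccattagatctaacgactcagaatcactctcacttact
A match describes these letters and was not tested for binding.

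The SAUR genes lie together on chromosome 5, between positions 5962773 and 5984308 of TAIR10.1, each with 1 exon, and the coding sequences of the 15 pairs are 87.7 to 95.2% identical. SAUR21 and SAUR24, the pair called below, are shown over 60 aligned coding bases, in which capitals mark the 2 positions that differ.
SAUR21 (chr5:5968581-5968640, plus strand): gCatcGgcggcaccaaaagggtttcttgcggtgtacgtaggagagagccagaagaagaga
SAUR24 (chr5:5983900-5983959, plus strand): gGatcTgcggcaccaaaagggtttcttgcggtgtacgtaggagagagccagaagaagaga
Every stretch of 100 bases in the exons of the 41 genes occurs once in the TAIR10.1 genome, so reads of that length can be told apart in principle. Exons of IAA3, IAA5, IAA9, IAA10, IAA11, IAA13, IAA27, IAA32 and IAA34 overlap another gene, and reads of the neighbour may be in their counts, because the TruSeq RNA v2 kit keeps no strand.

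The files gave 45728485 to 117753467 gene counts per sample, at which a count of 0 allows up to 0.0255 to 0.0656 CPM (3 counts, counting error only). The overexpressed gene, PPD3, averaged 591 ± 189 (T+ dwarf) and 707 ± 106 CPM (T+ normal; SD, n = 3 each), and the means of the other groups were 98.5 to 143 CPM. T+ normal 1 stood apart from all other samples in a principal component analysis. Counts of calls, calls of members and family medians below were also computed without it, as were the family sums of T+ normal. For the marker and pathway gene lists no fit without it is given. The 8 green leaf markers were abundant in all samples, and the 10 root markers summed to 3.46 to 6.74 CPM, with 2 of them at 0 throughout. In whole tissue, fewer cells of a type and less RNA per cell cannot be told apart.

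In level, Aux/IAA transcripts far outnumbered the others. Per length, as TPM (transcript counts per length, scaled to a fixed total), IAA9 averaged 241 TPM over the 20 samples and made up 22.8% of the Aux/IAA sum. IAA16 followed at 122 TPM and IAA8 at 103 TPM, and the 8 most abundant Aux/IAA genes held 79.9% of the sum. At the low end, IAA31 averaged 0.0741 TPM. GH3.6 (DFL1) led its family at 18.1 TPM, or 46.5% of the GH3 sum, and GH3.1 was lowest at 0.0757 TPM. SAUR24 led the SAUR genes at 10.2 TPM, or 30.5% of their sum, and SAUR19 was lowest at 1.44 TPM.

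**Figure D1:**
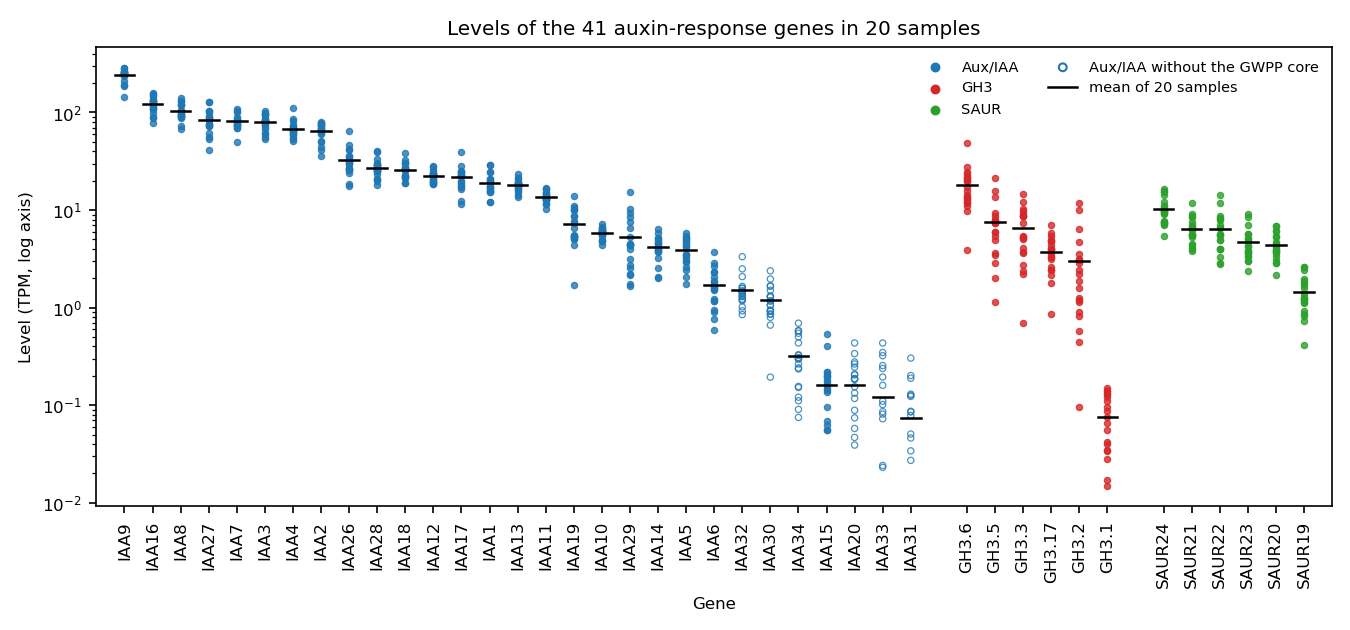
Level of each of the 41 genes in the 20 samples, in TPM on a log axis, ordered by mean within each family; points are samples above 0, bars are means, and open circles mark Aux/IAA genes without the GWPP core. IAA9 (241 TPM) leads the Aux/IAA genes, and the 6 genes without the core are among the 7 lowest of that family.

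IAA9 (AT5G65670) stood at 342, 308, 285, 319 and 295 CPM in Gen2 dwarf and at 316, 309.7 and 259 CPM in Gen2 large. It measured 292, 309 and 313 CPM in Gen1 dwarf, 305, 303 and 299.9 CPM in T+ dwarf. The T+ normal samples had 206, 259 and 277 CPM, and the WT samples 319, 352 and 306 CPM. T+ normal had the lowest mean. EdgeR called the gene in no comparison, while DESeq2 called it lower in T+ normal than in WT, with a log2 difference of −0.40 (adjusted p = 0.0105), higher in T+ dwarf than in T+ normal, with 0.30 (adjusted p = 0.0337), and across the 6 groups (adjusted p = 0.0258). GH3.6 (AT5G54510) varied more within groups: it read 63.1, 17.2, 36.0, 16.1 and 20.5 CPM in Gen2 dwarf, 30.5, 15.1 and 14.5 CPM in Gen2 large, 25.7, 25.3 and 31.9 CPM in Gen1 dwarf, 17.9, 15.6 and 26.6 CPM in T+ dwarf. The T+ normal samples had 6.14, 24.97 and 19.3 CPM of it, and the WT samples 29.5, 29.1 and 18.4 CPM. Every group overlapped WT in GH3.6, T+ normal 1 was the lowest sample, and neither edgeR nor DESeq2 called it anywhere.

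The families differed in how far their group means spread. The highest group mean was 1.51 times the lowest in the median Aux/IAA gene, 3.26 times in the median GH3 gene and 2.03 times in the median SAUR gene, where all tested genes had a median of 1.36. The widest spread was in GH3.2, at 8.24 times, and the narrowest in IAA7, at 1.10 times. These ratios also take in the spread within groups, and all tested genes were not matched to the families in level. Summed over the family, Aux/IAA levels averaged 1140 ± 79.9 TPM in Gen2 dwarf (SD, n = 5), 999 ± 159 TPM in Gen2 large, 1066 ± 79.4 TPM in Gen1 dwarf, 1022 ± 10.2 TPM in T+ dwarf and 940 ± 204 TPM in T+ normal, against 1107 ± 42.5 TPM in WT (n = 3 each). GH3 sums averaged 51.9 ± 22.2 TPM in Gen2 dwarf, 27.2 ± 12.6 TPM in Gen2 large, 54.8 ± 12.8 TPM in Gen1 dwarf, 37.7 ± 15.5 TPM in T+ dwarf and 20.4 ± 12.0 TPM in T+ normal, against 32.9 ± 7.05 TPM in WT. SAUR sums averaged 36.5 ± 7.39 TPM in Gen2 dwarf, 31.6 ± 6.25 TPM in Gen2 large, 39.5 ± 16.4 TPM in Gen1 dwarf, 24.1 ± 4.13 TPM in T+ dwarf and 38.6 ± 12.1 TPM in T+ normal, against 27.7 ± 11.5 TPM in WT. The GH3 sum had its highest means in Gen1 dwarf and Gen2 dwarf and its lowest in T+ normal. The T+ dwarf mean rested on T+ dwarf 3, at 55.5 TPM where the other T+ dwarf samples had 27.8 and 29.7 TPM, and without it the ratio of T+ dwarf to WT was 0.875 in place of 1.15. T+ normal 1 summed to 6.73 TPM, and without it T+ normal was at 0.830 of WT, where Gen2 large was at 0.827. The SAUR mean of WT rested on WT 3, which summed to 40.9 TPM where the other WT samples had 20.1 and 22.1 TPM, and without WT 3 the ratio of T+ dwarf to WT was 1.14 in place of 0.871.

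**Figure D2:**
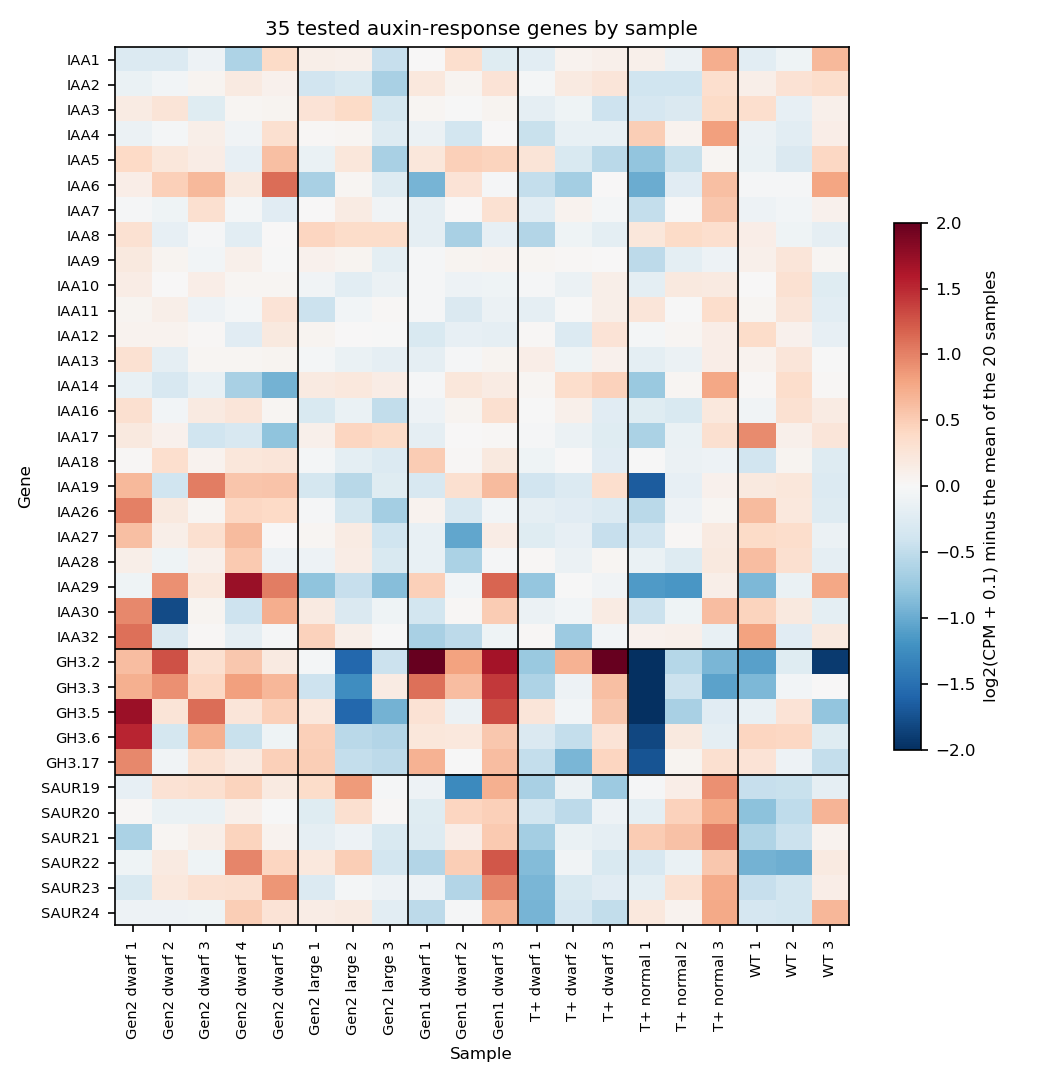
Each tested gene (rows, 24 Aux/IAA, 5 GH3 and 6 SAUR) in each sample (columns, by group), as log2(CPM + 0.1) minus the gene's mean over the 20 samples. The 5 GH3 rows are lowest in T+ normal 1, and the 6 SAUR rows are at or below their mean in all T+ dwarf samples.

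Against WT, 1 gene of the 35 passed edgeR's test, in 1 of 5 comparisons. In T+ dwarf, edgeR's quasi-likelihood test called 0 of the 35 genes (Benjamini-Hochberg adjusted p under 0.05 over all 19196 genes), where 0.0573% of all genes were called. DESeq2 called 0 as well, and 2 had an unadjusted p under 0.05, IAA17 and GH3.2. Counts at an unadjusted p, here and below, lack the share of all genes and do not set the members apart. Of the 35, 29 lay below WT, among them 22 of 24 Aux/IAA genes, with a median log2 difference of −0.17, where the median of all genes was −0.01. Without T+ dwarf 1 the median was −0.09, and without WT 3 the genes below WT were 23 of 35. GH3.2 had the largest difference, with 1.39, 3.92 and 14.4 CPM in T+ dwarf, against 1.07, 2.00 and 0.563 CPM in WT. Its log2 difference was 2.43 ± 0.80 (SE; adjusted p = 0.278), and the groups overlapped, since T+ dwarf 1 lay within the WT range.

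T+ normal against WT also had 0 of 35 called by edgeR, against 1.92% of all genes, with 6 at an unadjusted p under 0.05. DESeq2 called 3 (IAA4, IAA9 and SAUR21), and 1179 of all 19196 genes. Groups did not overlap in 4 of the 35, against 15.9% of all genes. All 5 GH3 genes lay below WT, with a median log2 difference of −0.61, and all 6 SAUR genes above it, with a median of 0.58. Without T+ normal 1 the GH3 median was −0.22, with 2 of 5 above WT, and the SAUR median was 0.26 without T+ normal 3 and 1.07 without WT 3. SAUR21 came closest to a call, with 4.27, 4.54 and 6.19 CPM in T+ normal, where the WT samples had 1.92, 2.19 and 3.12 CPM, which do not overlap. Its log2 difference was 1.05 ± 0.27 (adjusted p = 0.0530), and it was called without Gen2 dwarf 1 (0.0336) or WT 3 (0.0316).

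Gen1 dwarf, without the construct, had 0 of 35 called against WT, where 2.4% of all genes were called. An unadjusted p under 0.05 was reached by 7. DESeq2 called 3 of the 35 (GH3.2, GH3.3 and IAA18), and 1136 of all 19196 genes. All 5 GH3 genes and all 6 SAUR genes lay above WT, with medians of 0.79 and 0.46, and 19 of 24 Aux/IAA genes lay below it. The GH3 and SAUR medians rested on Gen1 dwarf 3: without it the GH3 median was 0.46, with 4 of 5 above WT, and the SAUR median was 0.05, with 3 of 6 above. Without WT 3 the SAUR median was 0.70. GH3.2, known from a dwarf gain-of-function mutant, stood at 12.1, 4.25 and 7.84 CPM in Gen1 dwarf, against 1.07, 2.00 and 0.563 CPM in WT. The lowest Gen1 dwarf sample was above the highest WT sample, and the log2 difference was 2.73 ± 0.80 (adjusted p = 0.0794). In this comparison groups did not overlap in 4 of the 35 genes, against 20.8% of all genes. GH3.3 (AT2G23170), an auxin-amido synthetase, stood at 14.3, 10.2 and 17.7 CPM in Gen1 dwarf, against 3.49, 6.33 and 6.67 CPM in WT, again without overlap. Its log2 difference was 1.36 ± 0.44 (adjusted p = 0.116). Leaving out T+ normal 1, a sample of neither group, brought both under the threshold. The adjusted p was then 0.0472 for GH3.2 and 0.0464 for GH3.3. GH3.2 was also called without T+ dwarf 3 (0.0429). IAA18 had the smallest p of the 35, with a log2 difference of 0.44 ± 0.13 (adjusted p = 0.0788) and groups that overlapped. It was called without WT 2 (0.0260).

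Gen2 dwarf against WT called 0 of 35, against 0.109% of all genes. The unadjusted p was under 0.05 for 6 of them, and DESeq2 called 0. The smallest p were those of IAA17, with a log2 difference of −0.70 ± 0.22 (adjusted p = 0.190), and IAA18, with 0.37 ± 0.12 (adjusted p = 0.194). In these 2 genes the groups overlapped. The direction was as in Gen1 for the smaller families: all 5 GH3 genes and all 6 SAUR genes lay above WT, with medians of 0.99 and 0.46. Without WT 1 or WT 2, 4 of 6 SAUR genes were above WT, without WT 3 the SAUR median was 0.75, and without Gen2 dwarf 1 GH3.6 lay below WT, at −0.19. GH3.3 stood at 10.8, 12.5, 8.83, 11.7 and 10.5 CPM in Gen2 dwarf, against 3.49, 6.33 and 6.67 CPM in WT. Every Gen2 dwarf sample was above every WT sample, and the log2 difference was 0.99 ± 0.41 (adjusted p = 0.296). Such separation was seen in 4 of the 35 genes, against 6.99% of all genes. GH3.2 stood at 3.71, 5.92, 3.03, 3.53 and 2.71 CPM in Gen2 dwarf, likewise above all 3 WT samples. These comparisons share the 3 WT samples, so a low or high WT value enters each of them.

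Gen2 large against WT was the 1 comparison of these 5 with a call by edgeR. DESeq2 called 1 of the 35 there as well, and 751 of all 19196 genes. Groups did not overlap in 5 of the 35, against 20.4% of all genes. IAA2 (AT3G23030), an early auxin-induced repressor, stood at 38.0, 40.3 and 31.6 CPM in Gen2 large, against 54.0, 60.7 and 63.4 CPM in WT. All Gen2 large samples were below all WT samples, and the log2 difference of −0.70 ± 0.16 passed the test (adjusted p = 0.0401), 1 of 35 where 1.2% of all genes were called, 1.04% as lower. That call was lost in 8 of the 20 fits without 1 sample, those without Gen2 large 1, 2 or 3, WT 2 or 3, T+ dwarf 2, Gen1 dwarf 3 or Gen2 dwarf 3, with adjusted p up to 0.177. IAA16 (AT3G04730), whose gain-of-function allele restricts growth, was also below WT without overlap, at 114, 129 and 100.4 CPM in Gen2 large, against 135, 176 and 159 CPM in WT, with a log2 difference of −0.45 ± 0.16 that did not pass (adjusted p = 0.161).

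**Figure D3:**
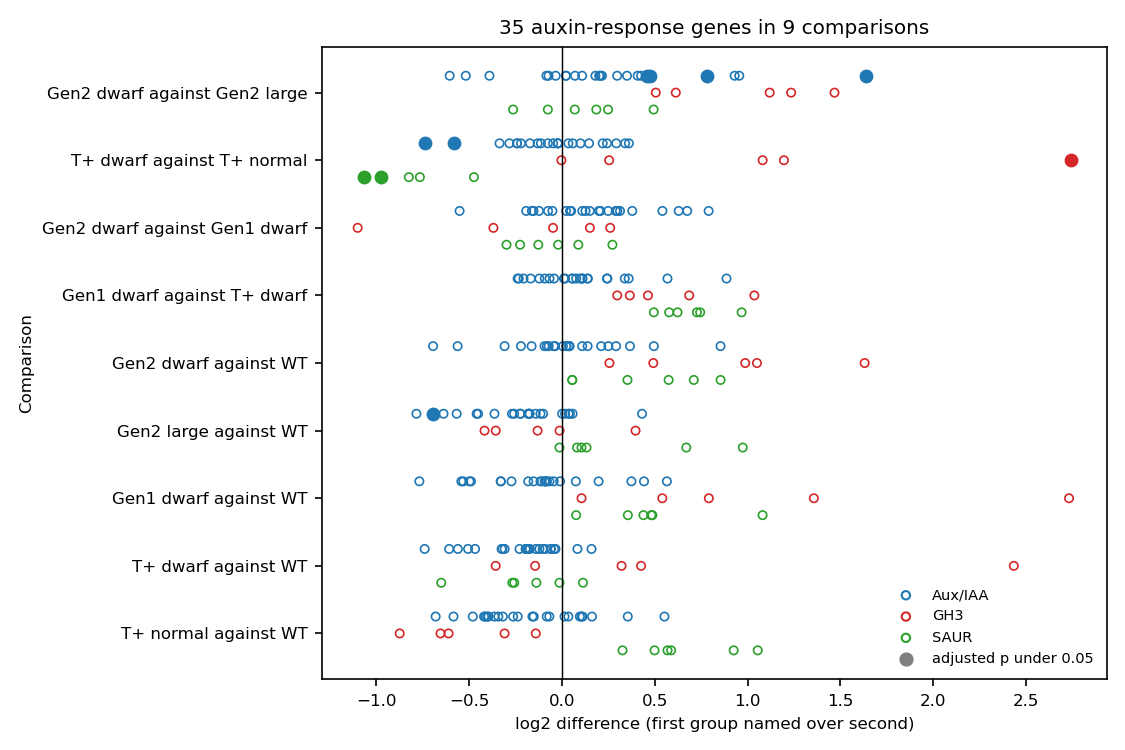
The log2 difference of each of the 35 tested genes in the 9 comparisons, the first group named over the second, by family; filled points passed edgeR's test (adjusted p under 0.05). The 10 filled points are 1 in Gen2 large against WT, 5 in T+ dwarf against T+ normal and 4 in Gen2 dwarf against Gen2 large.

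By edgeR, dwarf and normal plants that carry the construct differed in 5 of the 35 genes: IAA4, IAA8, SAUR21 and SAUR24 fell and GH3.2 rose in T+ dwarf relative to T+ normal. In this comparison 17.4% of all genes were called, so 5 of 35 (14.3%) is near the background; by direction, 7.8% of all genes rose and 9.59% fell. DESeq2 called 7 of the 35, these 5 with GH3.3 and IAA9, and 4193 of all 19196 genes. The median log2 difference was −0.05 over the members and 0.00 over all genes. Its sign rested on single samples: without T+ normal 3 it was 0.19, with 23 of 35 genes above T+ normal in place of 13, and without T+ normal 1 it was −0.19, with 9 above.

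IAA4 (AT5G43700), an Aux/IAA repressor, stood at 38.8, 48.0 and 47.7 CPM in T+ dwarf, against at 74.6, 55.9 and 94.1 CPM in T+ normal. Every T+ dwarf sample was below every T+ normal sample, and the log2 difference was −0.74 ± 0.17 (adjusted p = 0.00582). Groups without overlap were common here, in 8 of the 35 genes and 34.6% of all genes. IAA4 remained called in all 20 fits without 1 sample, with adjusted p up to 0.0462. IAA8 (AT2G22670) stood at 81.0, 114 and 106 CPM in T+ dwarf, against at 141, 157 and 153 CPM in T+ normal, with a log2 difference of −0.58 ± 0.15 (adjusted p = 0.0125). Its groups do not overlap either, and the call was lost without T+ dwarf 1, the lowest sample (adjusted p = 0.0747). Of the other 22 Aux/IAA genes tested, 9 lay above and 13 below T+ normal, none past edgeR's threshold. Of all 24, 18 lay above T+ normal without T+ normal 3 and 6 without T+ normal 1, in place of 9.

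GH3.2 (AT4G37390), an IAA-amido synthetase, stood at 1.39, 3.92 and 14.4 CPM in T+ dwarf, against at 0.140, 1.57 and 1.23 CPM in T+ normal. T+ dwarf 3 was far above the rest, T+ normal 1 was near 0, and T+ dwarf 1 lay within the T+ normal range. The log2 difference was 2.74 ± 0.81 (adjusted p = 0.0277). Without T+ dwarf 3 it was 1.43 (adjusted p = 0.209), without T+ normal 1 it was 2.24 (adjusted p = 0.0790) and without T+ normal 3 it was 2.96 (adjusted p = 0.0611). GH3.3 stood at 4.28, 6.15 and 10.12 CPM in T+ dwarf, against at 1.00, 4.88 and 3.101 CPM in T+ normal, with 1.195 ± 0.45 on the log2 scale (adjusted p = 0.0754). GH3.5 (WES1) had 1.08 ± 0.55, GH3.6 0.25 ± 0.51 and GH3.17, which favours glutamate as the partner amino acid, −0.0035 ± 0.45, and none of these passed. The sign of GH3.17 was positive with RLE scaling, with filterByExpr and in DESeq2, and GH3.6 was below T+ normal without T+ dwarf 3 or T+ normal 1. All 5 were lowest in T+ normal 1.

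The SAUR genes all lay below T+ normal, by log2 differences of −1.07 to −0.47, in this fit, under each other scaling and filter, and in each of the 20 fits without 1 sample. SAUR21 (AT5G18030) stood at 1.83, 2.71 and 2.61 CPM in T+ dwarf, against at 4.27, 4.54 and 6.19 CPM in T+ normal. These do not overlap, and the log2 difference was −1.07 ± 0.28 (adjusted p = 0.0123); without T+ dwarf 1 the adjusted p was 0.0665, and without T+ normal 3 it was 0.0666. SAUR24 (AT5G18080) stood at 1.82, 2.80 and 2.50 CPM in T+ dwarf, against at 4.13, 3.75 and 6.10 CPM in T+ normal, also without overlap, with −0.98 ± 0.32 (adjusted p = 0.0445). That call was the least stable: it was lost in 12 of the 20 fits without 1 sample, among them all but T+ normal 2 of the 6 samples compared, with adjusted p up to 0.196. The other 4 SAUR genes did not pass, with SAUR19 at −1.06 ± 0.49, SAUR20 at −0.77 ± 0.37, SAUR22 at −0.47 ± 0.44 and SAUR23 at −0.83 ± 0.38.

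Tissue markers moved in the same comparison. All 8 green leaf markers fell in T+ dwarf, and their sum was 12750 to 15578 CPM there and 21468 to 34207 CPM in T+ normal. Of the 5 stem secondary wall markers, all 4 tested rose, with sums of 50.3 to 54.1 CPM in T+ dwarf, against 11.8 to 33.3 CPM in T+ normal. AG was the 1 of 2 tested floral markers to fall. Its list summed to 18.6 to 20.4 CPM in T+ dwarf, against 17.7 to 33.6 CPM in T+ normal, with no floral gene at 0 throughout. In each list T+ normal 1 lay farthest from T+ dwarf, at 34207 (green leaf), 11.8 (stem) and 33.6 CPM (floral). T+ normal 2 and T+ normal 3 had 27880 and 21468 CPM (green leaf), 33.3 and 31.8 CPM (stem), and 21.6 and 17.7 CPM (floral). The part of these tissues in the differences of the auxin genes was not tested.

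Dwarf and large plants of Gen2, neither of which carries the construct, differed by edgeR in 4 of the 35 genes, all Aux/IAA and all higher in Gen2 dwarf: IAA2, IAA16, IAA26 and IAA29. The share of all genes called was 15.4%, 9.27% as higher, and 4 of 35 (11.4%) is near it. The median log2 difference over the members was 0.21, with 27 of 35 above 0, where the median of all genes was −0.02.

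IAA29 (AT4G32280), a repressor gene known as a target of the PIF factors of shade and warmth, had the largest difference of the 35. It stood at 3.11, 6.32, 3.85, 11.2 and 6.83 CPM in Gen2 dwarf and at 1.85, 2.38 and 1.77 CPM in Gen2 large. Every Gen2 dwarf sample was above every Gen2 large sample, and the log2 difference was 1.64 ± 0.47 (adjusted p = 0.0252). Groups without overlap were common here too, in 12 of the 35 genes and 27.7% of all genes. IAA26 (AT3G16500, also PAP1) stood at 75.2, 43.1, 38.5, 49.8 and 49.4 CPM in Gen2 dwarf and at 36.7, 29.4 and 23.5 CPM in Gen2 large. The groups do not overlap, though Gen2 dwarf 3 and Gen2 large 1 are close, and the log2 difference was 0.78 ± 0.22 (adjusted p = 0.0232).

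IAA2 stood at 45.6, 47.9, 51.9, 56.3 and 52.7 CPM in Gen2 dwarf and at 38.0, 40.3 and 31.6 CPM in Gen2 large, with a log2 difference of 0.47 ± 0.14 (adjusted p = 0.0342). IAA16 stood at 177, 136, 160.0, 168 and 145 CPM in Gen2 dwarf and at 114, 129 and 100.4 CPM in Gen2 large, with 0.46 ± 0.14 (adjusted p = 0.0360). Neither gene's groups overlap. Each call depended on single samples of Gen2 large, a group of 3: without Gen2 large 3 the adjusted p was 0.165 for IAA2, 0.155 for IAA16, 0.117 for IAA26 and 0.0996 for IAA29. It was also over the threshold without Gen2 large 1 for IAA2 (0.0815), IAA16 (0.101) and IAA29 (0.0917), and without Gen2 large 2 for IAA2 (0.0518), IAA26 (0.0720) and IAA29 (0.0584). Among the Gen2 dwarf samples, the calls were lost without number 3 (IAA2, 0.0572, and IAA16, 0.0594), number 4 (IAA2, 0.0743, IAA16, 0.0728, and IAA29, 0.0621), number 5 (IAA2, 0.0520) and number 1 (IAA16, 0.0627).

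IAA8 went the other way and just missed the threshold. It stood at 149.8, 109, 119, 105 and 122 CPM in Gen2 dwarf and at 163, 156 and 157 CPM in Gen2 large, without overlap, with a log2 difference of −0.39 ± 0.13 (adjusted p = 0.0529). IAA18 (AT1G51950), whose gain-of-function alleles affect root and leaf development, stood at 26.9, 33.5, 27.7, 30.8 and 31.1 CPM in Gen2 dwarf and at 25.8, 23.0 and 21.8 CPM in Gen2 large, with 0.35 ± 0.12 (adjusted p = 0.0522). DESeq2 called both, among 9 of the 35 and 4022 of all 19196 genes. With the 4 above, these 9 also include IAA19, GH3.3 and GH3.5. The fit without T+ normal 1 called 9 as well.

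All 5 GH3 genes lay above Gen2 large in Gen2 dwarf, with log2 differences of 0.51 to 1.47, and none passed. GH3.3 stood at 10.8, 12.5, 8.83, 11.7 and 10.5 CPM in Gen2 dwarf and at 4.95, 2.74 and 7.39 CPM in Gen2 large, with no overlap and 1.12 ± 0.41 on the log2 scale (adjusted p = 0.0699). GH3.5 had 1.47 ± 0.51 (adjusted p = 0.0597). Without T+ normal 1 the adjusted p was 0.0245 for GH3.3 and 0.0361 for GH3.5. The SAUR genes were near 0, 4 above and 2 below, with a median of 0.13, and without Gen2 dwarf 4 or Gen2 large 3 it was 2 above and 4 below, with medians of −0.04 and −0.02.

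Green leaf markers summed to 13556 to 17799 CPM in Gen2 dwarf and 18659 to 28414 CPM in Gen2 large, and 1 of 8, RBCS1A, fell. Stem secondary wall markers summed to 39.3 to 56.0 CPM in Gen2 dwarf and 23.5 to 27.4 CPM in Gen2 large, and 2 of 4 tested rose. AG fell, in a floral list that summed to 13.9 to 20.1 CPM in Gen2 dwarf and 18.2 to 24.4 CPM in Gen2 large. Their part in the differences of the auxin genes was not tested.

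**Figure D4:**
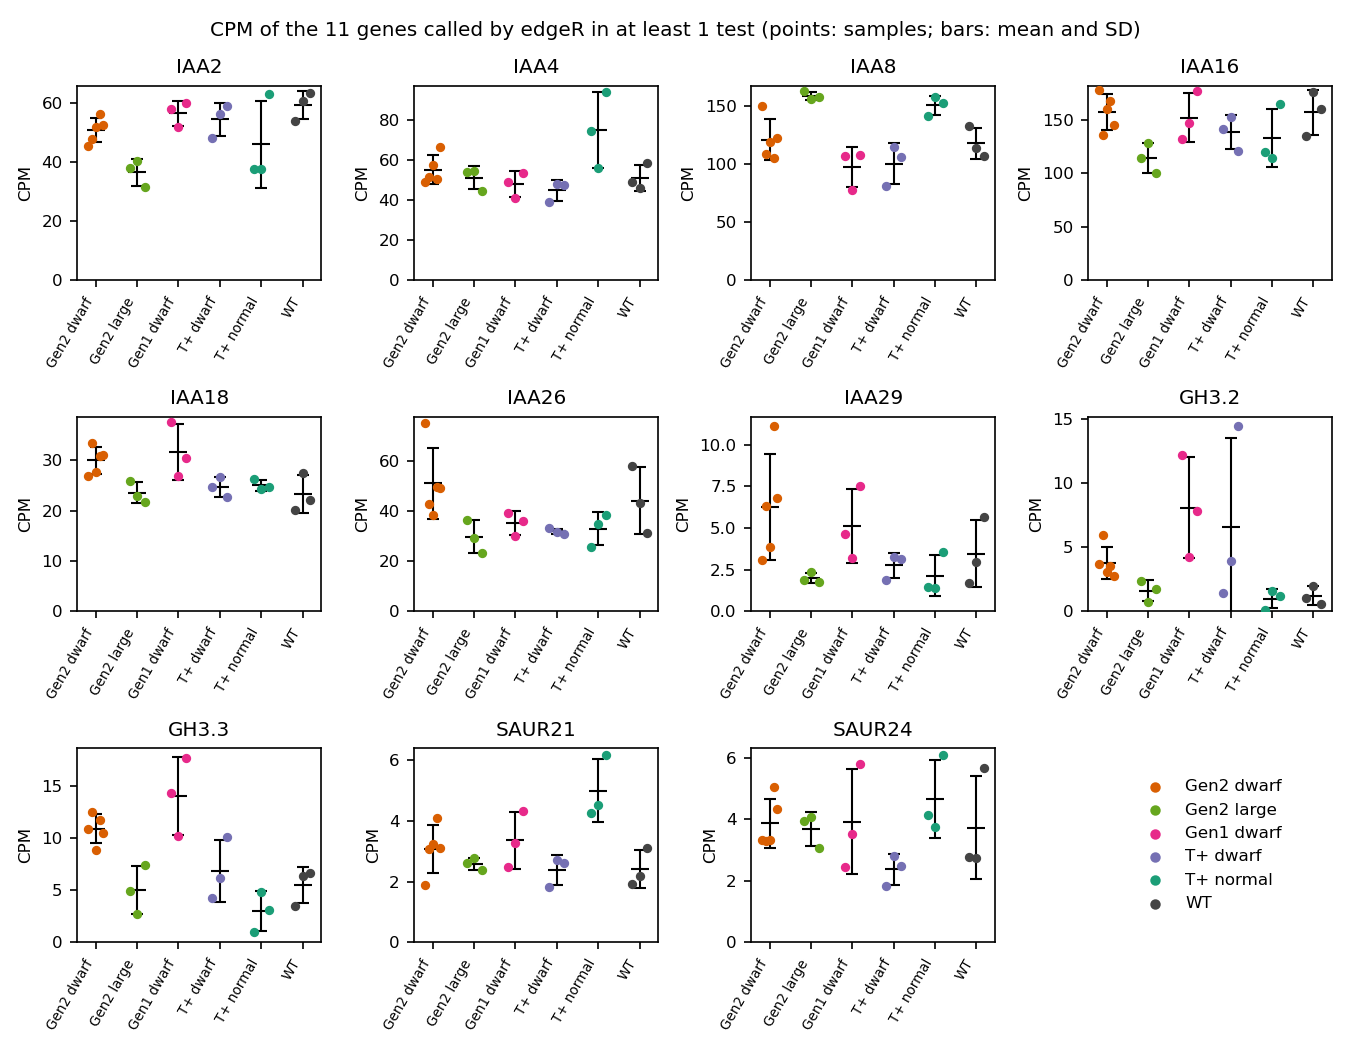
CPM by group of the 11 genes that edgeR called in any of the tests; points are samples, horizontal marks are group means and bars are SD (n = 5 in Gen2 dwarf, 3 in the other groups), with the bar of GH3.2 in T+ dwarf running below 0 and not drawn there. GH3.3 lies higher in Gen2 dwarf than in Gen2 large, IAA2 and IAA16 lie lowest in Gen2 large, and SAUR21 lies highest in T+ normal.

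The dwarf differences of T+ and Gen2 share no samples and could be set against each other. Among the 35 genes, 19 (54.3%) had the same sign in both, against 70.9% of all genes; 15 were lower in T+ dwarf than T+ normal but higher in Gen2 dwarf than Gen2 large, and 1 had the opposite pair of signs. The difference between the 2 dwarf effects had a median of −0.37 on the log2 scale over the members, with 30 of 35 below 0, where the median of all genes was −0.01. Without T+ normal 3 the median was −0.20, with 21 of 35 below 0, and the Aux/IAA genes above 0 were 11 of 24 in place of 3. No gene of the 35 passed the test of that difference in edgeR, 6 had an unadjusted p under 0.05, and 0.88% of all genes were called. DESeq2 called IAA4 and SAUR21, and 627 of all 19196 genes.

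All 6 SAUR genes were on the negative side, with T+ minus Gen2 differences of −1.32 to −0.66. For SAUR21 the difference was −1.32 ± 0.37 (adjusted p = 0.101) and for IAA4 −0.85 ± 0.22 (adjusted p = 0.0791), so a dwarf effect particular to T+ is not shown for either by edgeR. For GH3.3 the 2 effects were close, 1.195 ± 0.45 in T+ and 1.12 ± 0.41 in Gen2, with a difference of 0.08 ± 0.59, which was below 0 without T+ dwarf 3, T+ normal 1 or Gen2 large 3. IAA29 had 0.36 ± 0.49 in T+ and 1.64 ± 0.47 in Gen2, and its difference of −1.28 ± 0.67 did not pass (adjusted p = 0.435).

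**Figure D5:**
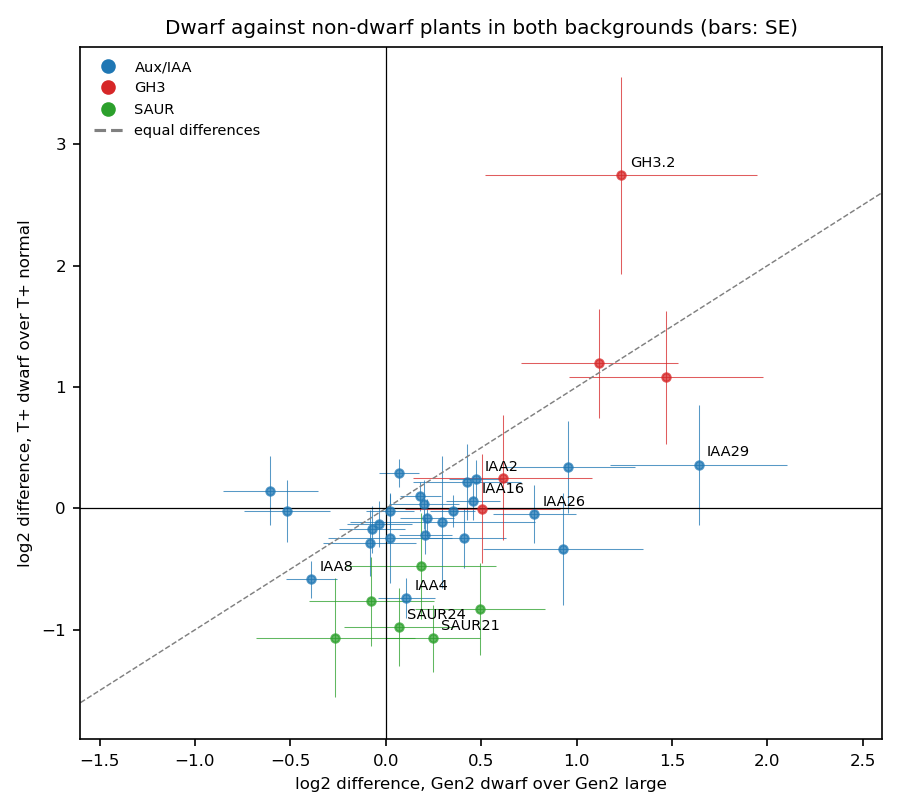
The log2 difference of T+ dwarf over T+ normal (vertical) against that of Gen2 dwarf over Gen2 large (horizontal) for the 35 tested genes, with bars of 1 SE; genes called by edgeR in either comparison are named and the dashed line marks equal differences. The 6 SAUR genes lie below 0 on the vertical axis, and GH3.2 (2.74) lies highest.

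Between the dwarf groups, no gene of the 35 was called by edgeR. In Gen1 dwarf against T+ dwarf 0 were called, against 0.00521% of all genes, with 4 at an unadjusted p under 0.05 and 0 by DESeq2. All 5 GH3 and all 6 SAUR genes lay above T+ dwarf, with medians of 0.46 and 0.67. Without T+ dwarf 3 the GH3 median was 1.17, and without Gen1 dwarf 3 the SAUR median was 0.30, with 5 of 6 above. SAUR22 stood at 1.64, 3.57 and 6.06 CPM in Gen1 dwarf and at 1.33, 2.40 and 2.03 CPM in T+ dwarf, which overlap, with 0.97 ± 0.44 (adjusted p = 0.990). In Gen2 dwarf against Gen1 dwarf 0 were called, against 0.37% of all genes, with 4 at an unadjusted p under 0.05 and 0 by DESeq2. IAA27 had the smallest p there, at 0.63 ± 0.22 on the log2 scale (adjusted p = 0.313). A p over the threshold does not show that the groups were alike.

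When all 6 groups were tested at once by edgeR, without choosing a pair, 9 of 35 genes differed (25.7%), where 24.1% of all genes did: IAA2, IAA4, IAA8, IAA18, IAA26, IAA29, GH3.2, GH3.3 and SAUR21. The smallest adjusted p was that of IAA8, 0.00547, and the next that of GH3.3, 0.00861. IAA8 was highest in Gen2 large, at 159 ± 3.71 CPM, and in T+ normal, at 150.4 ± 8.33 CPM, while it averaged 121 ± 17.7 CPM in Gen2 dwarf, 97.4 ± 17.4 CPM in Gen1 dwarf and 100.4 ± 17.3 CPM in T+ dwarf, against 118 ± 13.3 CPM in WT. GH3.3 had its highest means in the dwarf groups: 10.9 ± 1.38 CPM in Gen2 dwarf, 14.1 ± 3.75 CPM in Gen1 dwarf and 6.85 ± 2.98 CPM in T+ dwarf. It averaged 5.03 ± 2.33 CPM in Gen2 large, 2.99 ± 1.94 CPM in T+ normal and 5.50 ± 1.74 CPM in WT. Both, and GH3.2, remained called in all 20 fits without 1 sample. The call of IAA4 was lost without T+ normal 1 or 3 (adjusted p up to 0.178), that of IAA2 without Gen2 large 1 or 3 (up to 0.122) and that of SAUR21 without T+ normal 2 or 3 or Gen2 large 3 (up to 0.157). Those of IAA26, IAA29 and IAA18 were lost in 12, 10 and 6 of the 20 fits, with adjusted p up to 0.0782, 0.0788 and 0.0576. IAA18 was highest in Gen1 dwarf, at 31.6 ± 5.53 CPM, and lowest in WT, at 23.3 ± 3.81 CPM (adjusted p = 0.0311).

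The rest of the auxin pathway was read from 6 gene lists, with edgeR's calls. Among the 6 TIR1/AFB receptor genes, 3 were called in T+ dwarf against T+ normal, where 17.4% of all genes were: TIR1, AFB2 and AFB3 fell, by log2 differences of −0.33 ± 0.11, −0.38 ± 0.11 and −0.46 ± 0.11, and none was called elsewhere among the pairs. AFB3 averaged 41.3 ± 1.72 CPM in T+ dwarf, against 56.9 ± 4.52 CPM in T+ normal (adjusted p = 0.00839). Of 15 ARF genes tested, ARF2, which represses auxin targets, rose in the same comparison, by 0.38 ± 0.12 (adjusted p = 0.0387), and no ARF gene was called in any other.

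Synthesis genes were mostly too low to test, and 4 of 14 passed the filter. The synthesis and transport calls that follow are all in Gen2 dwarf against Gen2 large, where 15.4% of all genes were called. TAR2, an aminotransferase of the route to auxin, fell in Gen2 dwarf relative to Gen2 large, with a log2 difference of −0.75 ± 0.22 (adjusted p = 0.0269), and YUC6, a flavin monooxygenase that completes it, fell with −0.78 ± 0.20 (adjusted p = 0.0164). YUC6 averaged 1.81 ± 0.33 CPM in Gen2 dwarf and 3.12 ± 0.48 CPM in Gen2 large. Of 10 transport genes tested, PIN5, which moves auxin into the endoplasmic reticulum, rose in Gen2 dwarf relative to Gen2 large by 0.98 ± 0.27 (adjusted p = 0.0210). No other transport gene was called in any pair. In edgeR's test of all 6 groups the adjusted p was 0.123 for TAR2, 0.0542 for YUC6 and 0.0476 for PIN5.

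Calls were also made in genes that free auxin from its amino acid conjugates, the reverse of what GH3 enzymes do. Because the lists were chosen with earlier results of these data known, the calls only describe these genes. Any effect on auxin levels was not tested. Of 7 inactivation and release genes tested, IAR3, ILL6 and ILR1 rose in T+ dwarf relative to T+ normal, in Gen2 dwarf relative to Gen2 large and in Gen1 dwarf relative to WT. In T+ dwarf against T+ normal 3 of the 7 were called, where 17.4% of all genes were, in Gen2 dwarf against Gen2 large 4, where 15.4% were, and in Gen1 dwarf against WT 3, where 2.4% were. IAR3 and ILL6 are known to hydrolyse conjugates of jasmonic acid as well. ILL6 averaged 46.5 ± 15.2 CPM in Gen2 dwarf and 16.1 ± 3.103 CPM in Gen2 large, a log2 difference of 1.53 ± 0.20, and 49.9 ± 5.96 CPM in T+ dwarf, against 16.2 ± 1.25 CPM in T+ normal, a difference of 1.62 ± 0.22. It averaged 68.9 ± 0.71 CPM in Gen1 dwarf, against 34.6 ± 0.80 CPM in WT, so the mean lay below WT in the non-dwarf groups and above it in the dwarf groups. ILL6 fell in both Gen2 large (−1.10 ± 0.21) and T+ normal (−1.09 ± 0.21) relative to WT. IAR3 averaged 159 ± 33.98 CPM in Gen2 dwarf and 55.9 ± 6.80 CPM in Gen2 large (1.51 ± 0.18), 227 ± 33.7 CPM in Gen1 dwarf, 139 ± 20.9 CPM in T+ dwarf, 65.1 ± 10.5 CPM in T+ normal (1.10 ± 0.19) and 107 ± 19.4 CPM in WT. AT1G14130 (DAO1), listed for the inactivation of auxin and not for its release, rose in Gen2 dwarf relative to Gen2 large by 0.70 ± 0.16. It is the remaining call of the 4 in that comparison.

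Other SAUR genes, 45 of 74 tested, gave 11 calls in T+ dwarf against T+ normal, 2 higher and 9 lower, or 24.4% where 17.4% of all genes were called. SAUR68 fell, with a log2 difference of −1.34 ± 0.25 (adjusted p = 0.00148), with 3.43 ± 0.98 CPM in T+ dwarf, against 8.66 ± 1.09 CPM in T+ normal. AT4G34790 (−1.45 ± 0.30), AT2G21210 (−1.04 ± 0.26), AT4G34750 (−0.75 ± 0.22) and AT4G00880 (−0.66 ± 0.18) fell with it. In Gen2 dwarf against Gen2 large 5 of them were called, 4 higher and 1 lower, or 11.1% where 15.4% of all genes were. SAUR36, which is known from senescing leaves, rose in T+ dwarf relative to T+ normal (0.89 ± 0.20), in Gen2 dwarf relative to Gen2 large (1.33 ± 0.19) and in Gen1 dwarf relative to WT (0.86 ± 0.20). It averaged 4.83 ± 0.75 CPM in Gen2 dwarf, 1.91 ± 0.03 CPM in Gen2 large, 6.16 ± 1.63 CPM in Gen1 dwarf, 3.65 ± 0.61 CPM in T+ dwarf, 1.97 ± 0.04 CPM in T+ normal and 3.396 ± 0.28 CPM in WT.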

How the data were processed

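RNA-seq of 20 samples in 6 groups was used. The deposited files hold whole-number counts of reads by gene, which the authors obtained with Trim Galore 0.4.1, STAR 2.7.0a and the TAIR10 build, as listed in the submitters' processing notes. How genes were counted, and whether by strand, is not stated in the labels. Lines without a gene, 0.776 to 1.14% (no feature) and 0.264 to 0.360% (ambiguous) of gene counts, entered neither the library sizes nor the tests. Gene positions and sequences came from RefSeq's TAIR10.1 annotation, used by locus identifier. Within groups no pair of samples was alike within counting noise (chi-square per gene 39.0 to 228.5), so none repeats the counts of another. Each was treated as 1 replicate, though this check cannot show that samples came from separate plants. P-values cover the spread among these samples, which the labels call biological replicates without saying how plants were assigned to them.

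Genes with a mean over 0.5 CPM entered 1 edgeR 4.0.16 model (R 4.3.3) with a term per group, TMM scaling (factors 0.894 to 1.045), 14 residual degrees of freedom and a robust quasi-likelihood test; the spread common to all genes (BCV) was 0.205. P was adjusted by Benjamini-Hochberg over 19196 genes and called at 0.05. SE is the size of the log2 difference over the square root of F. TPM divides counts by the exon length. DESeq2 1.42.0, other scaling, other filters, a replicate block and fits without each sample were alternatives. The fit was tested on simulated data.

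Values per sample are given for members called in any test and for the most abundant of each family; other pathway genes are named where called in a pair, at most 6 a list. Members and lists were chosen with earlier results of these data known. Sequences of amino acids were not used beyond the motif search.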

Additional observations from a re-analysis of the deposited data

Results flagged for a closer look

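IAA32, an Aux/IAA gene without the degron core, was far higher in Gen2 dwarf 1 than in the other 4 samples of its group, at 3.46 CPM where those had 1.27 to 1.59 CPM. The gap to the nearest sample was 0.854 of the group's range, above the critical value of 0.71 for 5 samples. It was the 1 gene of 35 to be so marked in the group of 5, and chance marks about 1 in 20. An exon of IAA32 overlaps another gene; whether the sample's reads belong to IAA32 was not tested.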

How the results depend on the processing

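Size factors by RLE in place of TMM and edgeR's filterByExpr left every count of calls, over all genes and over members, within 1.5 times, and of the named differences GH3.17 in T+ dwarf against T+ normal, at −0.0035, changed sign with RLE, filterByExpr and DESeq2. With no filter, T+ normal against WT had 241 genes called in place of 368, and with both other filters SAUR24 was no longer called in T+ dwarf against T+ normal (adjusted p = 0.0508 with filterByExpr and 0.0516 with none). DESeq2 called more genes: 128 in T+ dwarf, 1179 in T+ normal, 1136 in Gen1 dwarf, 395 in Gen2 dwarf and 751 in Gen2 large against WT, 33 in Gen1 dwarf against T+ dwarf, 321 in Gen2 dwarf against Gen1 dwarf, and 627 for the difference of dwarf effects. Its member calls were 3 in T+ normal against WT, 3 in Gen1 dwarf against WT, 9 in Gen2 dwarf against Gen2 large and 2 for the difference of dwarf effects. Correlations of deviations from group means were −0.55 to 0.46 in 45 same-numbered pairs, with a median of 0.06. In 120 pairs of different number they were −0.43 to 0.45, with a median of −0.02. This check cannot decide whether same-numbered samples shared a batch, and the main model has no term for the number. With the replicate number as a block, genes called were 7 in T+ dwarf against WT, 4 in Gen2 dwarf against WT, 1392 in Gen2 dwarf against Gen2 large, 0 in Gen2 dwarf against Gen1 dwarf and 97 for the difference of dwarf effects. Members called with the block were 1 in T+ normal against WT, 0 in Gen2 large against WT, 1 in Gen2 dwarf against Gen2 large and 5 across the 6 groups, and SAUR genes in Gen2 dwarf lay 2 above and 4 below Gen2 large. EdgeR calls lost with the block included IAA2 in Gen2 large against WT (adjusted p = 0.0541) and GH3.2 in T+ dwarf against T+ normal (0.0643). IAA16 in Gen2 dwarf against Gen2 large was lost with it as well (0.107). As a sum of CPM with no length term, Aux/IAA in T+ dwarf was 0.880 of WT, in place of 0.923. Without 1 sample at a time, the genes called against WT numbered 4 to 273 for T+ dwarf, 40 to 643 for T+ normal, 80 to 818 for Gen1 dwarf, 8 to 80 for Gen2 dwarf and 10 to 354 for Gen2 large. They ranged from 2011 to 3930 in T+ dwarf against T+ normal, 1235 to 3454 in Gen2 dwarf against Gen2 large, 1 to 12 in Gen1 dwarf against T+ dwarf, 0 to 152 in Gen2 dwarf against Gen1 dwarf and 24 to 297 for the difference of dwarf effects. Members called ranged from 0 to 1 in T+ normal, 0 to 2 in Gen1 dwarf and 0 to 1 in Gen2 large against WT, 2 to 6 in T+ dwarf against T+ normal, 0 to 9 in Gen2 dwarf against Gen2 large, 0 to 1 for the difference of dwarf effects and 5 to 9 across the 6 groups. Ratios to WT of summed TPM ranged from 0.905 to 0.940 for Aux/IAA in T+ dwarf, and for SAUR from 0.766 to 1.14 (T+ dwarf), 1.15 to 1.83 (T+ normal), 1.16 to 1.73 (Gen2 dwarf) and 1.00 to 1.496 (Gen2 large). The cause of these shifts was not tested. Depth limits the 6 untested genes, at means under 0.5 CPM.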
